A study of Homo sapiens with 12 samples.

Results

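Death ligands and death receptors are proteins of the TNF and TNF receptor superfamilies, and 10 of their genes were followed here among the 17589 genes of the expression table. They were taken by gene symbol, as 5 ligand genes (TNF, LTA, LTB, TNFSF10 and FASLG) and 5 receptor genes (FAS, TNFRSF10A, TNFRSF10B, TNFRSF1A and TNFRSF1B), and all 10 were found and passed the filter on low counts. RNA came from YT cells, a human NK-like lymphoid line that lacks CD16a, after transduction with a lentiviral vector that drives its insert from the constitutive EF1A promoter. CTRL cells received eGFP, hnCD16 cells received a high-affinity, non-cleavable CD16, FR1 cells received hnCD16 fused to 2B4, DAP10 and CD3ζ signalling parts, and FR2 cells received hnCD16 fused to DAP10 and CD3ζ parts. Transduced cells of every group were sorted by eGFP and expanded, no target cell or antibody was added before RNA was taken, and each of the 4 groups had 3 replicates. The study's methods describe its in vitro data in general as coming from independent experiments, without naming the RNA libraries, and the sample descriptions do not say whether replicates were separate cultures. The p-values measure the spread between these libraries, part of which may be technical. The comparisons ask how the genes of cell death signalling stood in resting cells that carry each construct.

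NK cells kill by granules and by death ligands on their surface. Trimeric ligands such as Fas ligand (FASLG) and TRAIL (TNFSF10) bind receptors with an intracellular death domain, which recruit the adaptor FADD and the initiator caspases. TNF and lymphotoxin alpha (LTA) bind TNF receptor 1 (TNFRSF1A), which can signal survival through NF-kappaB or death, and TNF receptor 2 (TNFRSF1B), which has no death domain. Lymphotoxin beta (LTB) joins LTA in a membrane trimer that binds the lymphotoxin beta receptor.

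The libraries held 17714550 to 18729013 counts, and the correlation of log2(TPM + 1) between libraries was 0.997 to 0.999 within a group, 0.994 to 0.996 between CTRL and hnCD16 or between FR1 and FR2, and 0.864 to 0.871 between those pairs of groups. FCGR3A, which encodes CD16a and whose sequence the constructs carry, was at 0 counts in all CTRL libraries, at 453 to 480 in hnCD16, at 559 to 567 in FR1 and at 1012 to 1132 in FR2. Taken as sums, the markers went against the label of an NK-like line in CTRL and hnCD16. There the 7 NK cell markers summed to 28.0 to 34.7 CPM (counts scaled to a common library size). PRF1 had 5 to 13 counts and GNLY and NCAM1 0 to 4, but KLRD1 had 202 to 267, NKG7 177 to 256 and CD244 115 to 185. The 6 T cell markers summed to 714 to 882 CPM in CTRL and hnCD16, with CD3D at 7757 to 9903 counts. In FR1 and FR2 the NK cell markers summed to 1384 to 1482 CPM and the T cell markers to 36.3 to 43.0 CPM. KLRD1, at 225 to 282 counts there, overlapped the other pair. CD3D had 0 to 3 counts in FR1 and FR2, but CD3E had 595 to 717, against 1932 to 2828 in CTRL and hnCD16. The 3 B cell markers in the table summed to 5.37 to 9.35 CPM in CTRL and hnCD16 and to 38.2 to 47.4 CPM in FR1 and FR2, of which PAX5 gave 656 to 828 counts a library. The 4 monocyte markers summed to 2.80 to 4.23 CPM and 3.59 to 7.98 CPM, with CD14 at 0 to 2 counts. Wherever FR1 or FR2 is compared with CTRL or hnCD16 below, the construct and whatever else separates these libraries therefore cannot be told apart, and no subset of libraries removes the split. In RNA from bulk cells, fewer cells of a type and less RNA per cell cannot be told apart either.

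In FR1 and FR2 cells the ligands moved in opposite directions. TNF, LTB and LTA, the ligands of the TNF and lymphotoxin receptors, fell, TNF and LTB to 0 or 1 count in every library, while FASLG and TNFSF10 rose. Among the receptors, TNFRSF10B and TNFRSF1B rose 37.7- to 82.4-fold, TNFRSF10A fell 5.34- to 7.34-fold, and FAS and TNFRSF1A changed by at most 2.22-fold. Between hnCD16 and CTRL no member passed both thresholds.

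A gene counts as called below where edgeR's quasi-likelihood test gave a log2 fold change of 1 or more in either direction together with an adjusted p (Benjamini-Hochberg) no higher than 0.05. In FR1 against CTRL, 5 members were called higher and 4 lower, where 18.3% and 19.8% of all 13657 tested genes were called higher and lower. In FR2 against CTRL, 4 were called higher and 4 lower, beside 18.7% and 19.6% of all genes. In FR1 against hnCD16 the counts were 4 and 4, beside 18.7% and 19.6%, and in FR2 against hnCD16 they were 4 and 4, beside 19.6% and 19.8%. These comparisons share libraries, so their counts do not add to each other. The 10 genes were chosen with earlier results of these data known, so their calls are no independent evidence of an excess over all genes. The median log2 fold change of the 10 members was 0.71 in FR1 against CTRL and 0.62 in FR2 against CTRL, beside -0.03 and -0.04 over all tested genes. As members moved in both directions, this median falls between the least changed, TNFRSF1A and FAS, and measures no shift of the set.

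**Figure D1:**
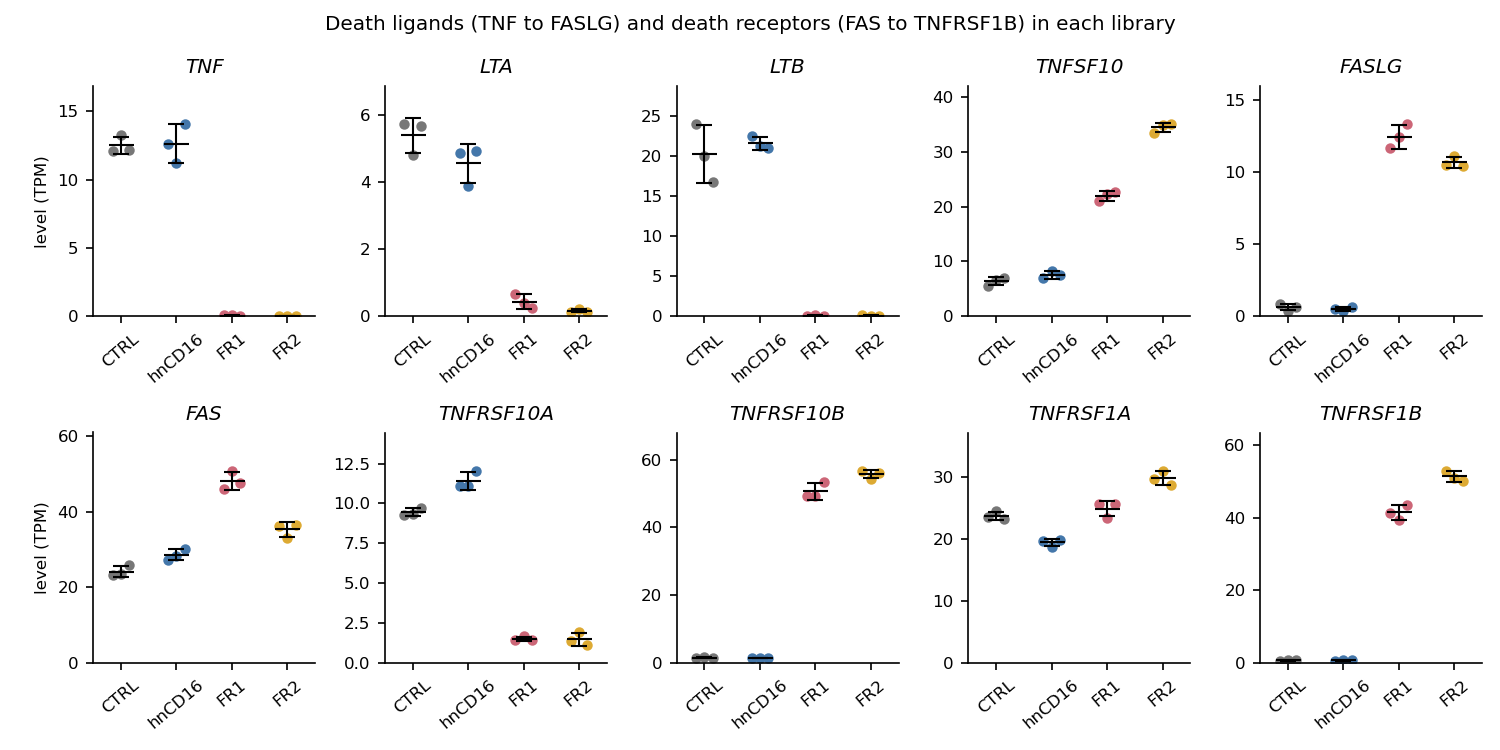
Level of each of the 10 genes in TPM (y axis, from 0, scaled per gene) in the 3 libraries of CTRL, hnCD16, FR1 and FR2 (x axis); points are libraries and black bars the mean ± SD. TNF, LTA and LTB lie near 0 in FR1 and FR2, and TNFRSF10B and TNFRSF1B lie near 0 in CTRL and hnCD16.

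Promoter windows of TNF and FASLG are printed, since TNF was the ligand with the fewest counts in FR2 and FASLG the ligand with the largest rise. RefSeq windows on GRCh38.p14 were found for 8 of the 10 members, in 12 entries. Shown are the 250 bases before the start of TNF, chr6:31575315-31575564 on the plus strand, and of FASLG, chr1:172658853-172659102 on the plus strand, neither of which overlaps a GENCODE exon. Capitals mark matches to GGAAA, the core bound by NFAT factors, or to TATAAA, on either strand.
TNF: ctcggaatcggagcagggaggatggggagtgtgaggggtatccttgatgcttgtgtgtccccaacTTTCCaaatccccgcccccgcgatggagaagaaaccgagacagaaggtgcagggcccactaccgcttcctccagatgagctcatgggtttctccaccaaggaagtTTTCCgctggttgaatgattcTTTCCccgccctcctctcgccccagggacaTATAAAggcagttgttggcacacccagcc
FASLG: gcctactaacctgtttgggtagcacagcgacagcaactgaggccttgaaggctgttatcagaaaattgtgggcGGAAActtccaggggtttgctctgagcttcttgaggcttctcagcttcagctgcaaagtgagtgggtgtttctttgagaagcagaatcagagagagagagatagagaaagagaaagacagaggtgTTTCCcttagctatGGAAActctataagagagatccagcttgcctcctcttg

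The TNF window held 3 GGAAA matches, all on the minus strand, and 1 TATAAA match from 29 to 24 bases before the start. The FASLG window held 3 GGAAA matches, on both strands, and no TATAAA. Over all 35116 windows of the same length, 55.6% held GGAAA and 10.7% held TATAAA, so a match to GGAAA is common. Matches to the consensus named kappaB lay in windows of LTA, LTB and FAS and in 9.96% of all windows, and matches to TGANTCA, the AP-1 site, lay in a window of FAS and in 6.57% of all. The matches are letters in these windows and no measure of a bound factor.

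TNF (NCBI Gene 7124, chr6:31575565-31578336, plus strand, GENCODE v44 on GRCh38) encodes tumour necrosis factor. Its counts were 203, 214 and 189 in CTRL, 222, 192 and 214 in hnCD16, 1, 1 and 0 in FR1 cells and 0, 0 and 0 in FR2 cells. Every library of CTRL and hnCD16 lay far above every library of FR1 and FR2, and CTRL and hnCD16 overlapped. TNF was 265-fold lower in FR1 than in CTRL, with a 95% exact counting interval of 72.9 to 2189.6, and 294-fold lower than in hnCD16 (80.9 to 2429). Against a floor of 3 counts over the 3 libraries of FR2, TNF was at least 179.6-fold lower in FR2 than in CTRL and at least 199-fold lower than in hnCD16. The edgeR adjusted p was 6.09e-13 for FR1 against CTRL and 4.29e-13 for FR2 against CTRL. Intervals and floors cover counting error only.

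LTB (NCBI Gene 4050, chr6:31580525-31582522, minus strand) encodes the membrane-bound partner of LTA. It had 206, 167 and 136 counts in CTRL, 199, 184 and 178 in hnCD16, 0, 1 and 0 in FR1, and 1, 0 and 0 in FR2. As for TNF, the libraries of CTRL and hnCD16 lay far above those of FR1 and FR2. LTB was 444-fold lower in FR1 than in CTRL (79.4 to 17588) and 452-fold lower in FR2 than in CTRL (80.8 to 17905), and the width of these intervals comes from the single count in each of FR1 and FR2. The edgeR adjusted p was 4.73e-12 and 4.19e-12.

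LTA (NCBI Gene 4049, chr6:31572054-31574324, plus strand) encodes lymphotoxin alpha. Counts were 95, 76 and 88 in CTRL, 86, 66 and 76 in hnCD16, 15, 9 and 5 in FR1 cells and 3, 4 and 3 in FR2 cells. LTA thus fell without reaching 0, and FR1 lay above FR2 in every library. Its log2 fold change was -2.95 ± 0.25 (SE) in FR1 against CTRL and -4.48 ± 0.32 in FR2 against CTRL, with edgeR adjusted p of 6.93e-09 and 3.97e-10. Against hnCD16 the log2 fold changes were -2.86 and -4.39.

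TNFSF10 (NCBI Gene 8743, chr3:172505508-172523475, minus strand) encodes TRAIL. Counts were 106, 121 and 125 in CTRL, 136, 155 and 139 in hnCD16, 394, 413 and 419 in FR1 cells and 628, 661 and 653 in FR2 cells, so the 4 groups did not overlap. The log2 fold change against CTRL was 1.99 ± 0.08 in FR1 and 2.63 ± 0.08 in FR2, a 3.99-fold and a 6.20-fold rise, with edgeR adjusted p of 1.03e-13 and 9.74e-16. Against hnCD16 it rose by 1.61 and 2.25 on the log2 scale.

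FASLG (NCBI Gene 356, chr1:172659103-172666876, plus strand) encodes Fas ligand. Counts were 15, 7 and 11 in CTRL, 10, 7 and 12 in hnCD16, 213, 225 and 240 in FR1 cells and 191, 207 and 189 in FR2 cells. Both FR groups lay above all CTRL and hnCD16 libraries, which overlapped each other. The fold change against CTRL was 23.3 in FR1 and 19.8 in FR2 (log2 4.54 ± 0.17 and 4.31 ± 0.17), with edgeR adjusted p of 4.33e-14 and 1.27e-13. Against hnCD16 it was 24.7 and 21.0.

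Summed in TPM, which scales counts by transcript length and allows genes to be added, TNF, LTA and LTB gave 38.1 ± 3.62 (SD, n = 3) in CTRL and 38.7 ± 2.13 in hnCD16 but 0.523 ± 0.260 in FR1 and 0.200 ± 0.056 in FR2. TNFSF10 and FASLG together gave 7.01 ± 0.640 and 8.06 ± 0.591 TPM, and 34.5 ± 1.74 and 45.2 ± 1.09 TPM. The sum of all 5 ligands was 45.1 TPM in CTRL and 46.8 in hnCD16, and it was 35.0 in FR1 and 45.4 in FR2.

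TNFRSF10B (NCBI Gene 8795, chr8:23020133-23069031, minus strand) encodes the TRAIL receptor DR5. Counts were 62, 66 and 58 in CTRL, 58, 59 and 52 in hnCD16, 2005, 1987 and 2149 in FR1 cells and 2304, 2252 and 2255 in FR2 cells. The fold change against CTRL was 37.7 in FR1 and 41.1 in FR2 (log2 5.24 ± 0.07 and 5.36 ± 0.07), with edgeR adjusted p of 4.58e-20 and 2.90e-20. Against hnCD16 it was 38.8 and 42.3.

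TNFRSF10A (NCBI Gene 8797, chr8:23190452-23225102, minus strand) encodes DR4, the other death-domain receptor of TRAIL. Counts were 256, 251 and 253 in CTRL, 316, 309 and 326 in hnCD16, 40, 45 and 39 in FR1 cells and 38, 54 and 31 in FR2 cells. The log2 fold change against CTRL was -2.42 ± 0.13 in FR1 and -2.45 ± 0.13 in FR2, with edgeR adjusted p of 8.23e-12 and 6.41e-12, and against hnCD16 it was -2.84 and -2.88. DR4 and DR5 thus moved in opposite directions. TNFRSF10B made up 14.1% ± 0.779 of the summed TPM of TNFRSF10A and TNFRSF10B in CTRL and 10.7% ± 0.929 in hnCD16, but 97.1% ± 0.324 in FR1 and 97.4% ± 0.748 in FR2. The sum itself was 11.0 TPM in CTRL and 12.8 in hnCD16, and it reached 52.2 in FR1 and 57.2 in FR2.

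TNFRSF1B (NCBI Gene 7133, chr1:12166991-12209228, plus strand) encodes TNF receptor 2. Counts were 21, 26 and 32 in CTRL, 22, 27 and 28 in hnCD16, 1545, 1470 and 1620 in FR1 cells and 1990, 1952 and 1872 in FR2 cells. It had the largest rise of the 10 members, 66.9 in FR1 and 82.4 in FR2 against CTRL (log2 6.06 ± 0.09 and 6.36 ± 0.09), with edgeR adjusted p of 1.52e-19 and 7.60e-20. Against hnCD16 the fold changes were 64.1 and 78.9.

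TNFRSF1A (NCBI Gene 7132, chr12:6328757-6342114, minus strand) encodes TNF receptor 1. Counts were 536, 539 and 500 in CTRL, 463, 435 and 443 in hnCD16, 574, 524 and 566 in FR1 cells and 664, 703 and 640 in FR2 cells. It was not called in any comparison, and its largest log2 fold change was 0.65 ± 0.06, in FR2 against hnCD16, with an edgeR adjusted p of 2.44e-08. TNFRSF1B rose from 2.995% ± 0.669 of the summed TPM of both TNF receptors in CTRL to 62.5% ± 0.657 in FR1 and 63.3% ± 0.965 in FR2, and it was 3.57% ± 0.632 in hnCD16. So FR1 and FR2 libraries held most TNF receptor RNA as TNFRSF1B, beside 0 or 1 count of TNF.

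FAS (NCBI Gene 355, chr10:88953813-89029605, plus strand) encodes the receptor of Fas ligand. Counts were 667, 671 and 717 in CTRL, 804, 815 and 863 in hnCD16, 1262, 1407 and 1310 in FR1 cells and 1025, 963 and 1035 in FR2 cells, and the 4 groups did not overlap. FAS was called in FR1 against CTRL, at a log2 fold change of 1.15 ± 0.06 and an edgeR adjusted p of 1.85e-12, and this call was lost when library sizes were not scaled by TMM (0.96) and with limma on log2(TPM + 1) (0.97) or log2(TPM + 0.1) (0.99). Its log2 fold change was 0.73 ± 0.06 in FR2 against CTRL, 0.78 ± 0.05 in FR1 against hnCD16 and 0.36 ± 0.06 in FR2 against hnCD16, all under the fold threshold.

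**Figure D2:**
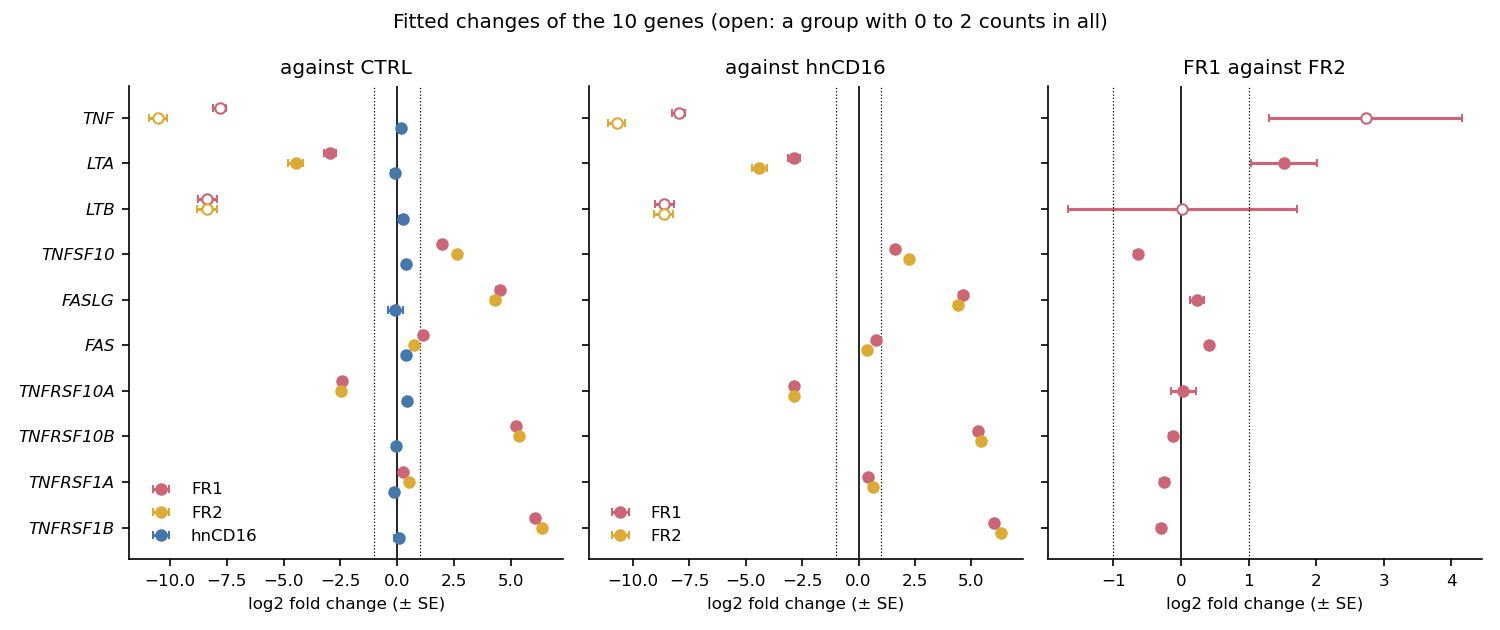
Fitted log2 fold change ± SE (x axis) of each gene (rows) against CTRL, against hnCD16 and in FR1 against FR2; dotted lines mark the threshold of 1, colours the first group named, and open circles values that rest on a group with 0 to 2 counts in all, which are not measures of size. TNFRSF10B and TNFRSF1B stand above 5 wherever FR1 or FR2 is set against CTRL or hnCD16, and hnCD16 against CTRL stays within 1.

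The order of levels changed with the pairs of groups. In CTRL, FAS led with 24.1 ± 1.41 TPM, next to TNFRSF1A with 23.8 ± 0.627 and LTB with 20.2 ± 3.61, and neighbours among these 3 overlapped. TNFRSF10B (1.55 TPM), TNFRSF1B (0.733) and FASLG (0.620) came last, the last pair overlapping. In hnCD16, FAS (28.6 ± 1.47 TPM), LTB (21.6 ± 0.806) and TNFRSF1A (19.5 ± 0.572) led without overlap, and TNF (12.6 ± 1.42) overlapped TNFRSF10A (11.4 ± 0.546). In FR1, TNFRSF10B led with 50.7 ± 2.46 TPM and overlapped FAS (48.1 ± 2.40), followed by TNFRSF1B (41.5 ± 2.12). In FR2, TNFRSF10B (55.7 ± 1.18 TPM) and TNFRSF1B (51.4 ± 1.41) led without overlap, and FAS (35.3 ± 1.92) overlapped TNFSF10 (34.5 ± 0.864). FASLG stood at 12.5 ± 0.836 TPM in FR1 and 10.7 ± 0.390 in FR2, and TNF and LTB came last in both.

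Groups can also be compared within each pair, where a construct and its own transduced, sorted and expanded population cannot be told apart. In hnCD16 against CTRL, 0 of 10 members were called, beside 0.527% of all genes, and 3 had an adjusted p of at most 0.05, beside 43.0% of all genes. Those 3 were FAS (log2 fold change 0.37 ± 0.06, edgeR adjusted p = 0.00012), TNFRSF10A (0.42 ± 0.09, 0.00168) and TNFSF10 (0.39 ± 0.09, 0.00284), and in each the hnCD16 libraries lay above all CTRL libraries. At an unadjusted p under 0.05 these 3 members passed too, and DESeq2 and limma also called 0 members at both thresholds. In FR1 against FR2, 1 of 10 members was called, beside 1.93% of all genes, and 6 had an adjusted p of at most 0.05, beside 36.2% of all genes. The call was LTA, at a log2 fold change of 1.53 ± 0.49 and an edgeR adjusted p of 0.022, on 5 to 15 against 3 or 4 counts. It was lost without FR1 replicate 1 (1.04, edgeR adjusted p = 0.162), without FR2 replicate 1 (1.43, 0.073), without FR2 replicate 3 (1.47, 0.062), and with limma on log2(TPM + 1) or log2(TPM + 0.1), where the log2 fold change was 0.29 and 0.97. TNFSF10 was lower in FR1 than in FR2 by a log2 fold change of -0.64 ± 0.06 (edgeR adjusted p = 1.44e-06), TNFRSF1B by -0.30 ± 0.05 (0.000282) and TNFRSF1A by -0.24 ± 0.06 (0.00444), while FAS was higher in FR1 by 0.42 ± 0.05 (1.53e-05). FCGR3A itself differed between FR1 and FR2, at -0.92 ± 0.06 on the log2 scale, and the part of its level in these differences was not tested.

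TNF, LTA and LTB lie side by side on chromosome 6, within 10.5 kb, so the genes beside them were read too. The fall went past the ligands on one side. LST1 and NCR3, the next listed genes after LTB, and AIF1, the next after these, were called lower in FR1 and in FR2 against both CTRL and hnCD16. LST1, which encodes a leukocyte transcript of myeloid cells, had 188 to 229 counts a library in CTRL and hnCD16, whereas FR1 libraries had 2 to 4 and FR2 libraries 0 to 2. NCR3, which encodes the activating NK cell receptor NKp30, had 101 to 109 in CTRL and hnCD16, whereas FR1 libraries had 12 to 17 and FR2 libraries 0 to 5. AIF1, a calcium-binding protein of macrophages, had 3943 to 4508 in CTRL and hnCD16, whereas FR1 libraries had 1 to 6 and FR2 libraries 4 to 11. In FR1 against FR2, NCR3 was called higher, at a log2 fold change of 2.58 ± 0.48 and an edgeR adjusted p of 0.000452.

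The listed genes outside this stretch of 44.97 kb, from the start of LTA to the end of AIF1 (chr6:31572054-31617021), did not move in that way. On the LTA side, NFKBIL1 had log2 fold changes of 0.58 ± 0.13 and 0.71 ± 0.12 in FR1 and FR2 against CTRL, ATP6V1G2 0.55 ± 0.24 and 0.85 ± 0.23, MICB 0.42 ± 0.06 and 0.45 ± 0.06, and DDX39B -0.81 ± 0.05 and -0.97 ± 0.05. On the AIF1 side, PRRC2A had 0.38 ± 0.05 and 0.50 ± 0.05 and BAG6 -0.65 ± 0.06 and -0.70 ± 0.06. None of these 6 was called against CTRL. In FR2 against hnCD16, DDX39B (-1.11 ± 0.05) was called lower and PRRC2A (1.02 ± 0.05) higher. MCCD1, the 10th neighbour, had 0 to 2 counts a library and was not tested. Of the 9 tested neighbours, 3 were called lower in FR1 and in FR2 against CTRL, beside 19.8% and 19.6% of all genes. Their median log2 fold change was -0.65 and -0.70, beside -0.03 and -0.04 over all genes.

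**Figure D3:**
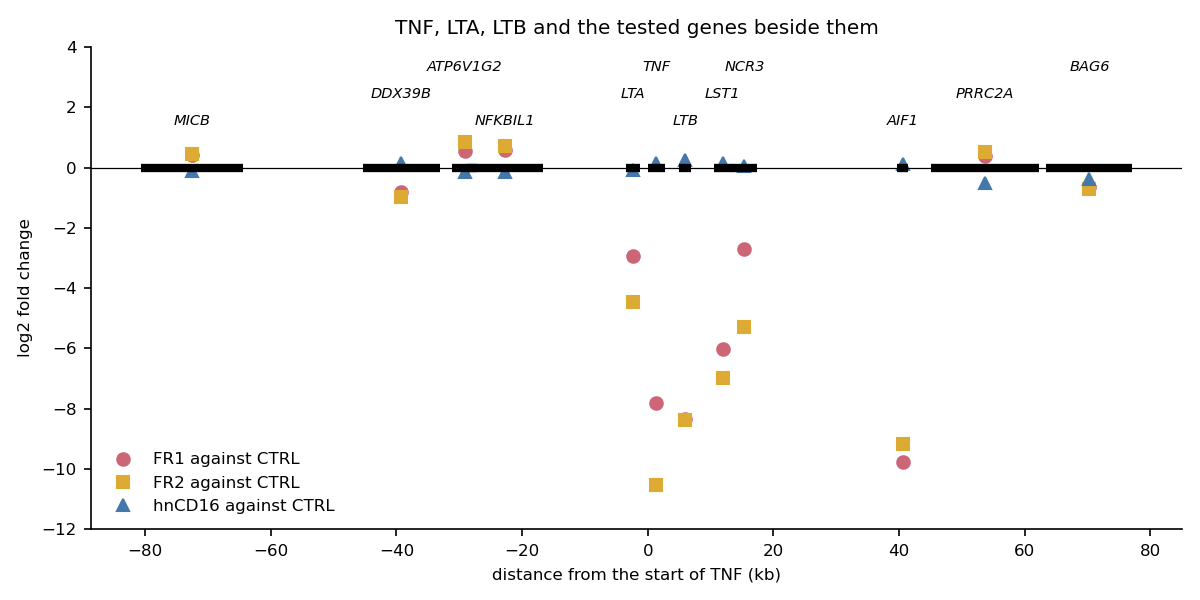
Log2 fold change against CTRL (y axis) of TNF, LTA, LTB and the 9 tested neighbours by the distance of the gene's middle from the start of TNF in kb (x axis); black bars show each gene's extent, circles FR1, squares FR2 and triangles hnCD16. LTA, TNF, LTB, LST1, NCR3 and AIF1 lie below -2 in FR1 and FR2, genes on either side lie between -1 and 1, and fitted values below -5 rest on few counts in FR1 and FR2.

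The list of 45 other pathway genes held 44 in the table, of which 43 were tested. In FR1 against CTRL 10 were called higher and 7 lower, in FR2 against CTRL 13 and 7, in FR1 against hnCD16 12 and 7, and in FR2 against hnCD16 13 and 7. The higher calls are 23.3% to 30.2% of the list, above the shares of all genes given above. The lower calls are 16.3%, close to those shares. This list too was chosen with earlier results known. The median log2 fold change of the list was 0.25 and 0.23 against CTRL.

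Of the 5 other receptors tested, 3 were called lower and 1 higher in FR1 and in FR2 against CTRL, where 19.8% and 19.6% of all genes were called lower. Those called lower were TNFRSF21 and TNFRSF25, death-domain receptors that do not bind the 5 ligands followed here, and TNFRSF10D, which binds TRAIL. TNFRSF21, which encodes DR6, had 290 to 477 counts a library in CTRL and hnCD16 and 0 to 3 in FR1 and FR2. TNFRSF25, which encodes DR3, had 80 to 103 counts in CTRL and hnCD16, 0 in all FR1 libraries and 0 or 1 in FR2, which is at least 84.7-fold lower in FR1 than in CTRL. TNFRSF10D, a TRAIL decoy receptor with a truncated death domain, had 84 to 148 counts in CTRL and hnCD16 and 0 to 3 in FR1 and FR2. TNFRSF10C, the TRAIL decoy receptor without a death domain, was called higher, at log2 fold changes of 1.51 ± 0.37 and 1.85 ± 0.35 in FR1 and FR2 against CTRL, on 2 to 10 counts in CTRL and 14 to 21 in FR1 and FR2. TNFRSF10C, TNFRSF10D, TNFRSF10A and TNFRSF10B are close relatives, and the counting can divide reads between them. TNFRSF6B, which encodes the soluble decoy DcR3, was not called, at -0.79 ± 0.27 and -0.52 ± 0.26. LTBR, the receptor of LTB with LTA, had 0 to 3 counts a library and was not tested, and TNFRSF11B was not in the table.

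Downstream of the receptors, single genes moved in both directions. Of the death-inducing complex (6 genes), TRADD, the adaptor of TNF receptor 1, was called higher and CASP10, an initiator caspase, lower in FR1 and FR2 against CTRL, whereas the adaptor FADD (0.52 and 0.64 on the log2 scale) and CASP8 (0.69 and 0.79) were not called. CFLAR, described below, was also called higher in FR2. The higher calls of this complex are 16.7% of its genes in FR1 and 33.3% in FR2, beside 18.3% and 18.7% of all genes. Its lower calls are 16.7%, beside 19.8% and 19.6%. Of the executioner caspases and their link to mitochondria (4 genes), 1 was called lower, BID, the substrate by which CASP8 reaches mitochondria. That is 25.0% of these genes, near the 19.8% and 19.6% of all genes called lower. BID had 1702 to 2176 counts a library in CTRL and hnCD16, whereas FR1 libraries had 5 to 13 and FR2 libraries 4 to 8, and its level was 87.4 ± 5.39 TPM in CTRL and 0.467 ± 0.186 in FR1. Of necroptosis, RIPK3, the kinase, had 46 to 59 counts in CTRL and hnCD16, 0 in all FR1 libraries and 0 or 1 in FR2, at least 48.0-fold lower in FR1 than in CTRL, while its substrate MLKL rose by 1.81 in FR1 and 1.63 in FR2 against CTRL on the log2 scale.

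Of the 18 genes of the TNF receptor survival complex, 4 were called higher and 1 lower in FR1 against CTRL, and 6 and 1 in FR2 against CTRL. The 4 higher calls in FR1 are 22.2% of these genes, beside 18.3% of all genes, the 6 in FR2 are 33.3%, beside 18.7%, and the lower calls are 5.56%, beside 19.8% and 19.6%. TRAF1, an adaptor that binds TNF receptor 2, rose by 3.92 ± 0.11 in FR1 and 4.18 ± 0.11 in FR2 against CTRL on the log2 scale. It was also the 1 pathway gene of 43 called in hnCD16 against CTRL, beside 0.527% of all genes, where it was lower by -1.43 ± 0.24 (edgeR adjusted p = 0.000229), on 8 or 9 counts against 21 to 28. TRAF5 rose by 2.34 ± 0.05 and 2.30 ± 0.05. TNFAIP3, which encodes the ubiquitin editor A20, was called lower, at -3.95 and -3.52. Of the 4 binders of the TNF messenger RNA, ZFP36, which encodes tristetraprolin and promotes decay of TNF messenger RNA, rose by 4.14 ± 0.11 and 4.37 ± 0.10, and its relative ZFP36L1 by 3.10 ± 0.09 and 3.32 ± 0.09. The other binders, ZFP36L2 and ELAVL1, stood lower in FR1 and FR2 than in CTRL and were not called. The higher calls are thus 50.0% of the 4 binders, beside 18.3% and 18.7% of all genes. ZFP36L2 had 82.7 CPM in CTRL, 52.8 in FR1 and 66.3 in FR2, and ELAVL1 had 131.8, 76.8 and 78.7. Of the 4 shedding and intramembrane proteases, SPPL2A rose, by 1.86 and 1.62, and was the 1 called. That is 25.0% of them, beside 18.3% and 18.7% of all genes called higher. ADAM17, which releases TNF from the surface, was not called (-0.13 and -0.21). In FR1 against FR2, 0 of the 43 were called by edgeR, DESeq2 or limma, beside 1.93% of all genes in edgeR, 25 had an unadjusted p under 0.05 in edgeR, and 22 (51.2%) had an adjusted p of at most 0.05, beside 36.2% of all genes.

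**Figure D4:**
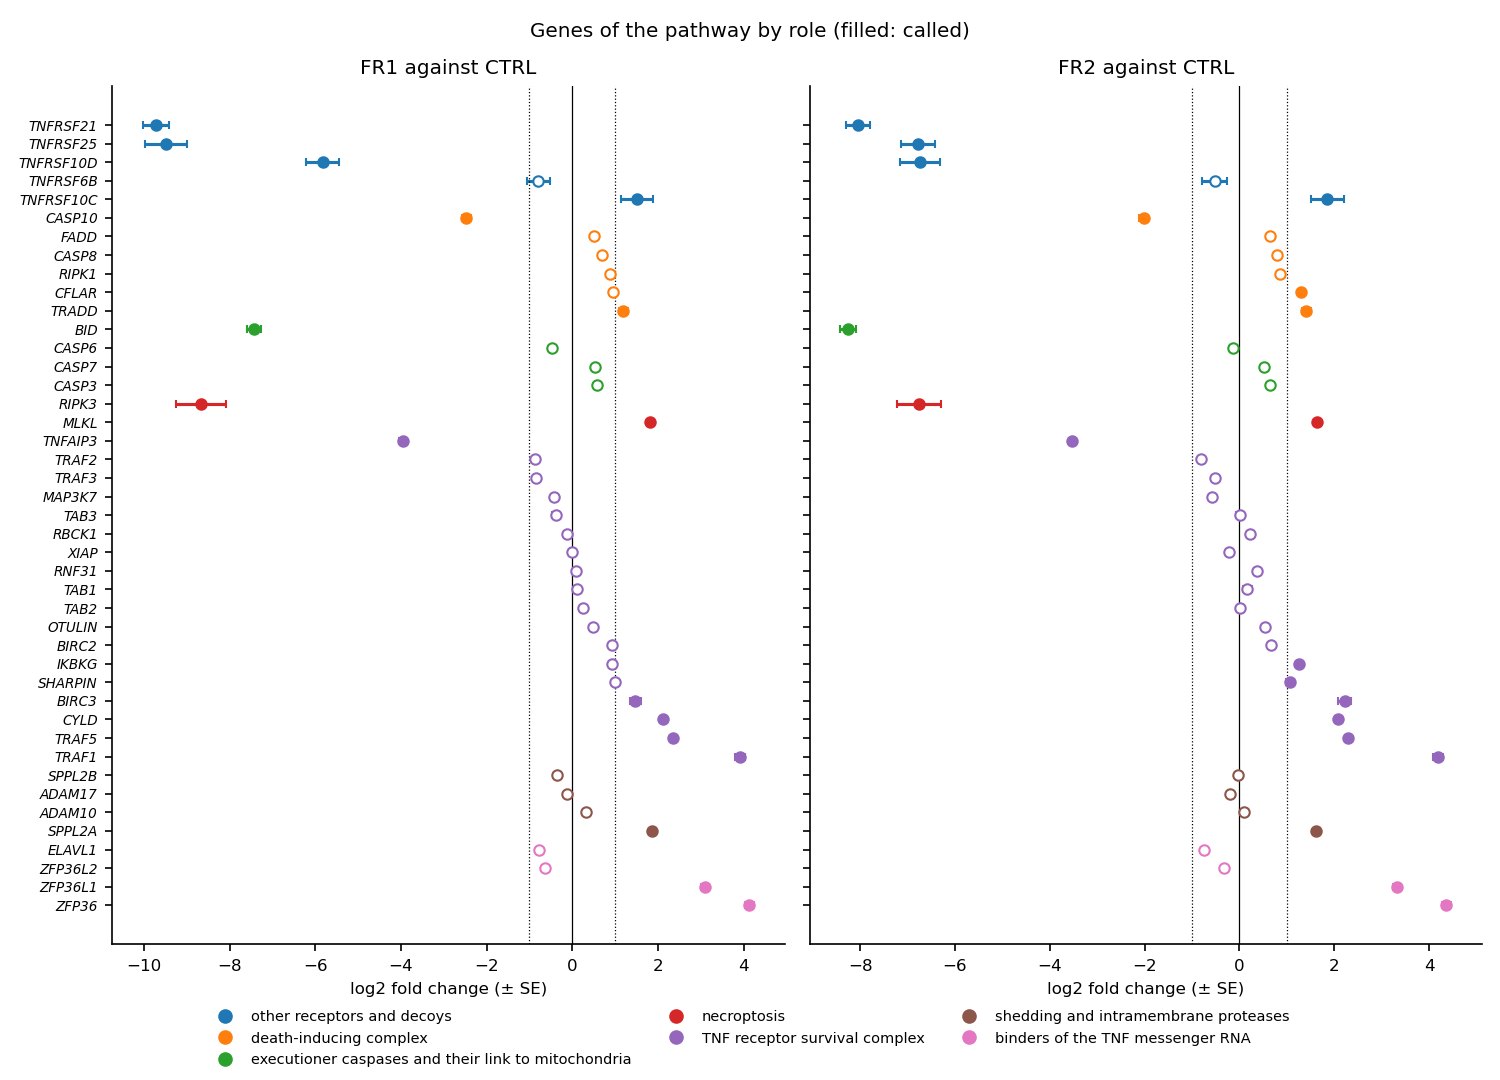
Log2 fold change ± SE (x axis) of the 43 tested pathway genes (rows, coloured by role) in FR1 and FR2 against CTRL; filled circles were called and dotted lines mark the threshold of 1. Of the 5 other receptors tested, 3 lie below -5 in both panels, and TRAF1, ZFP36 and ZFP36L1 lie above 3.

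Transcripts were read as well as gene sums. TNF had 8 transcript rows that were copies of 1 accession on alternate sequences, and LTA had 14 and LTB 16 with copies among them, and reads are divided between copies, so the levels of these 3 genes are given from the gene sum. Of 25 tested transcripts of the 10 members, with the rows named as copies left out and 1 row of TNF, 1 of LTB and 2 of LTA kept, 11 were called in FR1 against CTRL, 12 in FR2 against CTRL, 10 in FR1 against hnCD16 and 11 in FR2 against hnCD16, beside 14.7%, 14.8%, 14.8% and 15.3% of all 56640 tested transcripts. The 3 lower calls in each of these comparisons were the rows of TNF and LTB and the single transcript of TNFRSF10A. Both transcripts of TNFRSF10B, NM_003842 and NM_147187, were called higher in all 4 comparisons. TNFRSF1A was not called as a gene, but its transcript NM_001065 was called higher in FR2 against CTRL (log2 fold change 1.04) and FR2 against hnCD16 (1.37). NM_001065 took 54.2, 56.6 and 49.5% of the TNFRSF1A counts in CTRL, 56.9, 32.3 and 51.2% in hnCD16, 75.6, 64.8 and 68.9% in FR1, and 77.6, 83.4 and 68.9% in FR2. All FR1 and FR2 libraries lay above all CTRL and hnCD16 libraries, while within each pair the groups overlapped. These shares are estimates by RSEM from reads that fit both transcripts, and they were given no test.

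CFLAR, the inhibitor of CASP8 in the death-inducing complex, was singled out after its values were seen, because its counts and its TPM moved by different folds. Its log2 fold change in counts was 0.94 in FR1 and 1.296 in FR2 against CTRL, and it was called higher in FR2 but not in FR1. Its mean TPM, in contrast, rose from 24.6 ± 1.72 in CTRL to 86.2 ± 0.166 in FR1 and 113 ± 1.32 in FR2, a ratio of 3.51 and 4.60. The transcript NM_001351591 held 2.65% ± 0.588 of the CFLAR counts in CTRL and 3.06% ± 0.784 in hnCD16, but 23.1% ± 1.57 in FR1 and 24.1% ± 1.12 in FR2. In counts it went from 37.3 to 57.5 a library in CTRL and hnCD16 to 632 to 917 in FR1 and FR2, and of CFLAR TPM it made up 16.2% in CTRL and 18.4% in hnCD16, and 66.9% in FR1 and 68.5% in FR2. Another CFLAR transcript, XM_017005191, went from 22.3 to 40.5 counts a library in CTRL and hnCD16 to 374 to 628 in FR1 and FR2. Its share of the CFLAR counts was 1.42% to 2.63% and 13.6% to 17.1%.

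**Figure D5:**
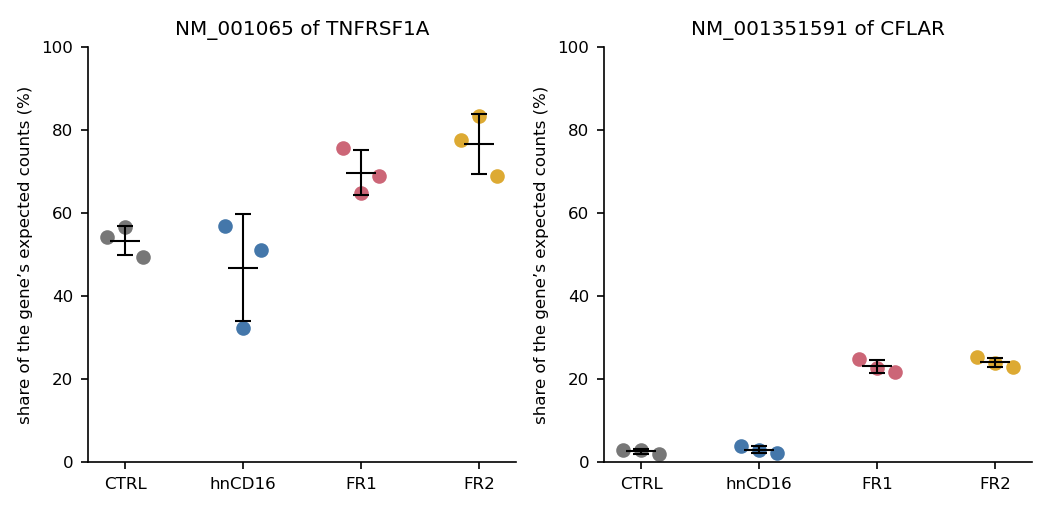
Share of the gene's expected counts in percent (y axis, 0 to 100) held by NM_001065 of TNFRSF1A and by NM_001351591 of CFLAR in each library of the 4 groups (x axis); points are libraries and black bars the mean ± SD. The FR1 and FR2 libraries lie above all CTRL and hnCD16 libraries in both panels.

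The genes whose levels ran most like a member's were found by the root mean square difference of log2(CPM + 1), centred on each gene's mean, over the 12 libraries, which share the split between pairs of groups. For TNF they were CTPS2 (0.0937), LST1 (0.1002) and LMO2 (0.106), so 1 of the 3 was a neighbour in the locus. For LTB they were SYNGR4, NLRP11 and RXRA, and for LTA RBMX2, ZNF433 and FBXO10. For TNFSF10 they were GSTK1, CCDC126 and KLHL32, and for FASLG NBPF10, CCDC172 and ICAM1. For FAS they were BUB1, CMTR2 and TIMM17A, and for TNFRSF1A NUDT22, SH3BGRL3 and PLEKHJ1. For TNFRSF10A they were SLC4A8, PTGR2 and SCRN3, for TNFRSF10B CACNA2D3, HEG1 and FOXO1, and for TNFRSF1B CDKN2A, CDC42EP3 and PLXDC2. No member was among the nearest 3 of another member. The added 1 CPM flattens differences between low levels, so a near gene can differ from its member in fold. CACNA2D3, for example, had 0 CPM in CTRL, where TNFRSF10B had 3.12.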

How the data were processed

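RNA-seq of YT cells in 4 groups of 3 libraries was analysed. The labels name both depletion of ribosomal RNA and oligo(dT) beads. The authors trimmed reads with SOAPnuke and, per the labels, used GRCh38.p13, HISAT2 2.1.0, Bowtie2 2.3.4.3 and RSEM 1.3.1. The deposited expected counts of genes and transcripts were estimated by RSEM and are not normalized, and the deposited TPM values were made by the authors from the same reads. RSEM can divide a read between similar sequences. Whether counting used strand is not given in the sources used here. In each of the 2 tables, 40 other value columns, of FPKM, normalized counts and averages over replicates, were not used. The 10 genes and the gene lists were chosen with earlier results of these data known.

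Expected counts were rounded and tested in edgeR 4.0.16 (R 4.3.3) (quasi-likelihood test, TMM), with 1 fit of the 12 libraries without covariates, after filterByExpr by group kept 13657 genes, with Benjamini-Hochberg adjustment in each of 6 comparisons. The thresholds are those of the study, which named DESeq2. The SE of a log2 fold change was derived as its absolute value divided by the square root of the test's F statistic. It is approximate where counts are low. CPM uses TMM library sizes. Where all libraries of a group were at 0, the fold is a bound against 3 counts over the group. Where a group had 1 to 4 counts in all, it is a ratio of summed counts with an exact (Clopper-Pearson) interval. The fit was tested on simulated counts in which 200 of 12844 tested genes had a log2 fold change of 2. It called all 200 of them and 3 unchanged genes. The changed genes were drawn away from 0 counts and were a smaller share than the genes called between the pairs of groups. The simulation therefore does not cover genes near 0 or a split of that size.

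The text names the 10 members, FCGR3A, the other receptors, the called pathway genes with a mean of at least 1 CPM that had the highest and lowest changes in a comparison, the genes beside TNF, and for each member the 3 genes of nearest profile. TRADD, CASP10, FADD, CASP8, MLKL, TNFAIP3, SPPL2A, ADAM17, ZFP36L2 and ELAVL1 were added for their roles after their values were seen, and so was CFLAR. Coordinates are from GENCODE v44. Alternatives were DESeq2 1.42.0, limma 3.58.1 on TPM with a pseudocount of 1 or 0.1, RLE, library size only, other filters, the replicate block, a fit of the compared groups alone, the adjusted p without a fold threshold, and each library left out. Figures used matplotlib 3.10.9.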

Additional observations from a re-analysis of the deposited data

How the results depend on the processing

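Where counts had to reach 10 in every library, 10758 genes were tested, and TNF, LTA, LTB and FASLG were no longer among them. The members called fell to 5 (FR1 against CTRL), 4 (FR2 against CTRL), 4 (FR1 against hnCD16), 4 (FR2 against hnCD16) and 0 (FR1 against FR2). The pathway genes called went to 10, 13, 12 and 13 in the first 4 of these and 0 in hnCD16 against CTRL. Of all genes, 2966, 2965, 2992, 3151 and 73 were called in the same order of comparisons, and 8 in hnCD16 against CTRL. Without a fold threshold, the members called were 3 in hnCD16 against CTRL and 6 in FR1 against FR2. The pathway genes were 22 in hnCD16 against CTRL, 39 and 36 in FR1 and FR2 against CTRL, 40 and 38 in FR1 and FR2 against hnCD16, and 22 in FR1 against FR2. In that order these are 51.2%, 90.7%, 83.7%, 93.0%, 88.4% and 51.2% of the list. They stand beside 43.0%, 79.9%, 80.2%, 79.1%, 80.1% and 36.2% of all genes. In FR1 against FR2, 0 members were called by limma with either pseudocount, and 0 where only those groups were fitted, which left LTA untested. In hnCD16 against CTRL, limma on log2(TPM + 1) called 0 pathway genes. TRAF1, the 1 called by edgeR, had a mean of 0.563 TPM in CTRL and 0.183 in hnCD16. With 1 added, levels under 1 TPM cannot differ by a log2 fold change of 1. With 1 library left out in turn, the members called in FR1 against FR2 ranged from 0 to 1, and no other count of members or pathway genes moved by over 1.5 times.

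Signs turned in values that were never called. TNFRSF1B in hnCD16 against CTRL went to -0.0514 by library size only and to -0.0095 and -0.0166 by limma with a pseudocount of 1 and 0.1, LTB in FR1 against FR2 to -0.0272, -0.00431 and -0.0224 in the same order, and TNFRSF10A in FR1 against FR2 to -0.0252 by library size only. With a library left out, the range was -0.20 to 0.00418 for LTA, -0.36 to 0.21 for FASLG, -0.11 to 0.025 for TNFRSF10B and -0.0663 to 0.20 for TNFRSF1B in hnCD16 against CTRL, and -1.92 to 1.93 for LTB and -0.12 to 0.29 for TNFRSF10A in FR1 against FR2. Library size only moved the median log2 fold change of all genes to -0.22 and -0.17 in FR1 and FR2 against CTRL and to -0.12 in hnCD16 against CTRL.

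Same-numbered replicates were not treated as pairs, since in no comparison was the correlation of their deviations over 0.1 in each pair (-0.12 to 0.46). In hnCD16 against CTRL it was 0.38 for replicate 1 and 0.46 for replicate 3, with other numbers at most -0.05 and 0.04. For replicate 2 it was 0.001, with other numbers up to 0.15. Whether libraries of 1 number shared a batch was not tested. With the replicate block the members called were 9, 8, 8, 8, 1 and 0 as before, the pathway genes called were also the same in number, and all genes called went from 72 to 75 in hnCD16 against CTRL and from 264 to 275 in FR1 against FR2. Values of 1 or 2 counts a group limit the folds of TNF and LTB.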
